A study of Mus musculus with 3 samples.

Results

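A set of 30 genes of glycolysis and of the transcriptional response to low oxygen was followed through 3 single-cell RNA libraries of mouse left ventricle. They were taken by symbol, 30 of the 30326 gene symbols in the files, and fall into 6 groups by role: 3 glucose and lactate transporters, 7 enzymes of the entry and commitment steps, 9 enzymes of the lower part of the pathway, 2 enzymes that set the fate of pyruvate, the HIF subunit Hif1a with 2 oxygen sensors, and 6 other genes known to respond to hypoxia. All 30 were found, Aldoa as 2 entries, and the second Aldoa entry is left out of every count since it held at most 4 UMIs in any of the 5 classes compared. UMIs, the unique molecular identifiers that mark single captured transcripts, were summed per library and cell class, and a level is given in UMIs per 1000000 UMIs of that class (CPM).

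Glycolysis splits glucose into pyruvate and yields ATP without oxygen. When oxygen is short, the prolyl hydroxylases stop marking the HIF alpha subunits for degradation, and HIF then binds the sequence core ACGTG or GCGTG near genes of glucose uptake, glycolysis, lactate export, mitophagy and vessel tone. HIF activity is set largely by the stability of the protein, so the Hif1a transcript is no direct reading of it. The heart covers most of its energy need from fatty acids, and heart failure with preserved ejection fraction (HFpEF) is a condition in which the use of glucose and fat by the heart has been much studied.

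Each group was 1 library of 4 pooled samples from the left ventricle of C56Bl6 mice, so no test between groups was possible. Control mice had a control diet for 10 weeks, with no vector named. HFpEF-scr and HFpEF-FoxO1-sh mice shared 6 weeks of High-Fat plus L-NAME diet, L-NAME being an inhibitor of nitric oxide synthase, and had for 4 weeks an adeno-associated virus (AAV) carrying a scrambled hairpin or a hairpin against the transcription factor FoxO1. The first comparison, HFpEF-scr over Control, therefore joins diet, L-NAME and vector. The second, HFpEF-FoxO1-sh over HFpEF-scr, asks what the FoxO1 hairpin adds to the same diet, and both comparisons share the HFpEF-scr library. The cell suspension had been strained to remove cardiomyocytes, red cells had been lysed, and the labels give neither age nor sex, nor the promoter of the vectors.

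The files held 33022, 36179 and 27453 barcodes, and 12757, 14567 and 16791 cells were kept. Barcodes with over 20% mitochondrial UMIs, which were left out, made up 56.9%, 53.8% and 31.2% of the Control, the HFpEF-scr and the HFpEF-FoxO1-sh library. Between 238 and 335 barcodes were shared by each pair of libraries, about 1% of the smaller one. Foxo1 itself, the target of the hairpin, read 61.1, 56.2 and 59.6 CPM over all kept cells, so the library labelled HFpEF-FoxO1-sh was not lower there. HFpEF-FoxO1-sh is used below as that library's label only, and not as a statement that Foxo1 was reduced. Its Foxo1 ratio to HFpEF-scr was 1.12 (95% interval 1.08 to 1.18) in fibroblasts and 0.790 (0.669 to 0.932) in endothelial cells.

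Cell classes were named from marker genes after clustering without the glycolysis and hypoxia genes, so the classes do not rest on them. Fibroblast-like (7743, 8583 and 10067 cells), macrophage-like (1114, 1556 and 1977), smooth-muscle-like (395, 360 and 355) and endocardial-like cells (571, 420 and 351) are the 4 classes with most cells in their smallest library, and endothelial-like cells (328, 485 and 393) were added after the values were seen. The class names are used below without "-like". Dcn, which marks fibroblasts, was detected in at least 99.96% of fibroblasts and C1qb in at least 99.46% of macrophages. Acta2 was detected in at least 98.2% of smooth muscle cells and Cdh5 in at least 96.69% of endothelial cells. Of the endocardial markers, Emcn was detected in 96.0%, 96.7% and 95.2% of endocardial cells, Npr3 in 83.4%, 77.6% and 80.1%, and Nrg1 in 17.3%, 17.1% and 21.1%. Not every class was free of other cells' RNA. Fibroblasts held 16345 to 16502 CPM of Dcn, macrophages 44.8 to 46.5 and T cells 30.7 to 43.6, whereas erythroid-like cells held 12574 to 13510, cardiomyocyte-like cells 7151 to 8160 and B cells 8712, 7633 and 1132. Levels in these last 3 classes are not read below. Endocardial cells held 2863 to 3699 CPM of Dcn and smooth muscle cells 1253 to 2048.

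The promoters of 27 of the 30 genes were found in RefSeq (GRCm38.p6), as 250 bases before to 50 after the start, and Slc2a3, Ero1l and Ndrg1 were not. Where a gene had several entries, only the first was read, for the members and for all genes. The HIF core was searched as ACGTG or GCGTG on both strands, and CACGTG counts as 2 overlapping matches. It stood at least once in 21 of 27 promoters (77.8%), against 48% of 19407 genes of the files, and at least 2 times in 66.7% against 23.7%. The members were chosen as glycolysis and hypoxia genes, so these shares are a description and no independent result. The genes set beside them were not matched for base content. The 5 promoters below are a selection from the genes named in the comparisons. They belong to the glucose transporter Slc2a1, with 2 matches, and to Pdk1 (2), Ldha (7), Bnip3 (5) and Ankrd37 (4). In endothelial cells all but Slc2a1 read higher in HFpEF-scr than in both other libraries. Other members did so too and are not shown, among them Pfkfb3, Hif1a and Ndrg1. By the rule given below Pfkfb3 was counted as higher there than in Control, whereas Ldha and Bnip3 were not. Whether the endothelial differences go with the number of matches was not tested. Capitals mark the matches, those of the other strand in reverse complement, which are a description of the letters and no evidence of binding. For Ldha and Pdk1 the first of 2 entries is shown.
Slc2a1 promoter, chr4:119108495-119108794, plus strand: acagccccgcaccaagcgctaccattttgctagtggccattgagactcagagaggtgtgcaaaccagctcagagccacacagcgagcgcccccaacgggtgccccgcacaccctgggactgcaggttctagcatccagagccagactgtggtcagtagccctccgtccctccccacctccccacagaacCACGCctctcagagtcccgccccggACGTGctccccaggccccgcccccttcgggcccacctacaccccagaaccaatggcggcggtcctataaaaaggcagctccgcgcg
Pdk1 promoter, chr2:71872974-71873273, plus strand: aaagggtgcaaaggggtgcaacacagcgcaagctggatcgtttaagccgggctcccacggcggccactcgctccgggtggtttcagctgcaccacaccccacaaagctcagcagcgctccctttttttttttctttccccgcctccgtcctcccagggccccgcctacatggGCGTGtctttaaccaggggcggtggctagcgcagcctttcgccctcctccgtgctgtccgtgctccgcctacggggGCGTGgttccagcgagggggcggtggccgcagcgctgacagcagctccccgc
Ldha promoter, chr7:46845554-46845853, plus strand: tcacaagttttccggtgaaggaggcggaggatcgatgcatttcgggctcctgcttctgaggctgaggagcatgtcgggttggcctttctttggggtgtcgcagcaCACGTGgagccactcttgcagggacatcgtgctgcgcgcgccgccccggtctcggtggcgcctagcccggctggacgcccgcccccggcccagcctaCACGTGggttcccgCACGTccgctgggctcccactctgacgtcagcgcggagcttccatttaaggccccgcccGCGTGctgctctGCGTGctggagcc
Bnip3 promoter, chr7:138909457-138909756, minus strand: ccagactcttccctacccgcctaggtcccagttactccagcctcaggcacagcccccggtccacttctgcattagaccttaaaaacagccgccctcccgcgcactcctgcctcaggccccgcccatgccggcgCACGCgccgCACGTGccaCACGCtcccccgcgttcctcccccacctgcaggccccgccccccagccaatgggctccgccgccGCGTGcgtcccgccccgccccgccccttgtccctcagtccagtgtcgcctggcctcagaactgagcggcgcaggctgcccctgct
Ankrd37 promoter, chr8:45999801-46000100, minus strand: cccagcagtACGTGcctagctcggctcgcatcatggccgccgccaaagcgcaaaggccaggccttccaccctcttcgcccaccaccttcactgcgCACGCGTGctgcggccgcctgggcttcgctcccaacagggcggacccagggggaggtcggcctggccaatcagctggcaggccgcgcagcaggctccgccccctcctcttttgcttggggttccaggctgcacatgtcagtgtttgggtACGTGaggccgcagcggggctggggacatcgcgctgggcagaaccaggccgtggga
No match stood in the windows read of Hk1, Gpi1, Aldoa, Tpi1, Eno2 and Pkm. Hk1 and Pkm have 2 entries and Aldoa 3, and the windows of their other entries were not read.

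Together the 30 genes gave 0.239%, 0.228% and 0.246% of all UMIs in the Control, the HFpEF-scr and the HFpEF-FoxO1-sh library. Single genes spanned a wide range of levels between cell classes, as the map of levels by class shows. Values below are given in that order of libraries. These are levels of 1 gene in several classes, and levels of different genes are not compared. Neutrophils (42, 97 and 106 cells), mesothelial cells (108, 45 and 90) and pericytes (111, 39 and 297) fell under 50 cells in 1 library, so their levels carry wide counting errors.

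**Figure D1:**
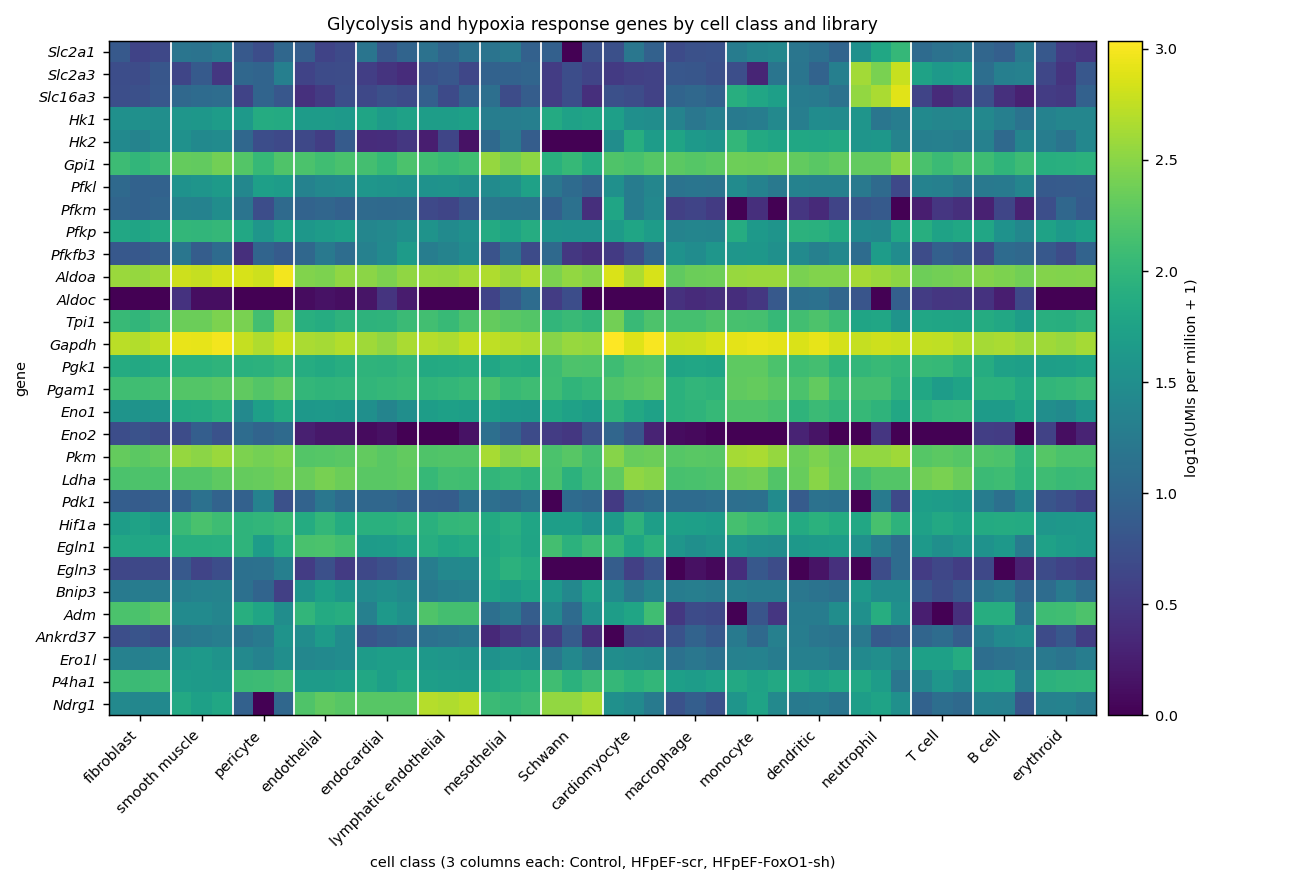
Level of each of the 30 genes (rows) in 16 cell classes, with 3 columns per class for Control, then HFpEF-scr, then HFpEF-FoxO1-sh, coloured by log10(CPM + 1). Slc2a3 and Slc16a3 are brightest in neutrophils, Ndrg1 in lymphatic endothelial and Schwann cells, and Gapdh and Aldoa are bright in every class; erythroid, B cell and cardiomyocyte columns include fibroblast RNA.

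The transporters were unevenly spread. Slc2a3, the high-affinity glucose transporter GLUT3, stood at 413, 265 and 603 CPM in neutrophils, then at 55.7, 42.9 and 47.9 in T cells, and at 1.42 to 2.65 in endocardial cells. Slc16a3, the lactate exporter MCT4, stood at 354, 448 and 788 CPM in neutrophils and at 78.3, 61.4 and 50.2 in monocytes, but only 1.36 to 3.23 in T cells. Slc2a1, the glucose transporter GLUT1, was also highest in neutrophils, at 32.2, 63.7 and 105 CPM. Among the 5 classes compared below it was highest in smooth muscle cells in HFpEF-scr and HFpEF-FoxO1-sh, at 14.1, 13.3 and 16.9, with endocardial cells at a like level in Control. Neutrophils thus held the highest level of each of the 3 transporters.

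Among the entry enzymes the 2 hexokinases were high in different cells. Hk1, the housekeeping hexokinase, was at 58.3, 45 and 53.7 CPM in endocardial cells and 70.1, 53.0 and 58.1 in Schwann cells, but at 21.8, 15.2 and 18.9 in macrophages. Hk2, the inducible hexokinase, was at 102, 68.8 and 60.3 CPM in monocytes, 63.1, 61.6 and 67.7 in dendritic cells and 57.9, 42.4 and 37.3 in macrophages. It had no UMI in Schwann cells of any library and at most 3.33 CPM in lymphatic endothelial cells. Of the phosphofructokinase genes, Pfkm, the muscle form, was at 22, 21.3 and 29.6 CPM in smooth muscle cells and 2.33 to 3.20 in macrophages. Pfkp, the platelet form, was at 102, 98.7 and 106 CPM in smooth muscle cells, and Pfkl, the liver form, at 33.8, 37.5 and 43.6. Pfkfb3, whose product makes the allosteric activator of phosphofructokinase, was at 20 CPM or more in every library of monocytes (38.4, 39.2 and 32.1), macrophages (34.1, 29.1 and 38.1) and endocardial cells (20.7, 27.1 and 45.1). The same held in dendritic cells (27.0, 20.1 and 25.3). Gpi1, glucose-6-phosphate isomerase, ranged from 75.4 CPM in Schwann cells to 359 in mesothelial cells.

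Genes of lower glycolysis were found in every class. Gapdh stood between 303 CPM in Schwann cells and 958 in smooth muscle cells, leaving out the 3 classes with much fibroblast RNA, and Aldoa, the main aldolase, between 195 in macrophages and 962 in pericytes. Tpi1, triosephosphate isomerase, reached 223, 227 and 273 CPM in smooth muscle cells and 62.2, 60.6 and 57.8 in T cells. Pgk1, phosphoglycerate kinase, at 149 to 193 CPM, and Eno1, the main enolase, at 143 to 158, were higher in monocytes in every library than in any of the 5 classes compared below. Pgam1, phosphoglycerate mutase, was at 179 to 207 CPM in monocytes, and Pkm, pyruvate kinase, at 364 to 449, with smooth muscle cells at 167 to 179 and 325 to 384. Eno1 has a near-identical retrogene among the annotated genes, so its reads may be split. The 2 tissue-restricted isoforms were rare: Aldoc was at 12.0, 12.7 and 9.14 CPM in dendritic cells and had 0, 1 and 0 UMIs in fibroblasts, and Eno2 was at 4.19, 4.87 and 4.04 in fibroblasts with no UMI in T cells or monocytes.

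Ldha, the lactate dehydrogenase subunit that favours lactate, was at 238, 264 and 221 CPM in T cells and 218, 260 and 228 in endothelial cells. Pdk1, a kinase that inhibits pyruvate dehydrogenase and so the making of acetyl-CoA from pyruvate, stood at 49.3, 47.0 and 43.2 CPM in T cells and at 6.68 to 7.20 in fibroblasts. The order of T cells above fibroblasts in Pdk1 held in each library without overlap.

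Hif1a ranged from 34.6 CPM in Schwann cells to 145 in smooth muscle cells. Egln1, the main HIF prolyl hydroxylase PHD2, was highest in endothelial cells, at 143, 148 and 130 CPM, against 60.9 to 66.0 in fibroblasts. Egln3, the hydroxylase PHD3 and itself a HIF target, was at 66.9, 88.7 and 73.5 CPM in mesothelial cells, 18.2, 25.2 and 26.3 in lymphatic endothelial cells, and had 0, 4 and 2 UMIs in macrophages.

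Of the hypoxia-responsive genes, Ndrg1, a stress gene also known from Schwann cells and their hereditary neuropathy, stood at 497, 473 and 532 CPM in lymphatic endothelial cells and 348, 354 and 434 in Schwann cells. In endothelial and endocardial cells it was at 156 to 197, and in macrophages at 4.80 to 7.17. Adm, the vasodilator peptide adrenomedullin that lymphatic growth needs, was at 151, 148 and 177 CPM in fibroblasts and 158, 132 and 133 in lymphatic endothelial cells, against at most 1.56 in T cells. Ankrd37, a HIF target of little known function, was at 29.9, 45.6 and 28.6 CPM in endothelial cells, the highest of the 5 classes compared, and stood at 4.26 to 5.15 in fibroblasts. Bnip3, a mitophagy receptor, was at 56.4, 46.3 and 56.8 CPM in mesothelial and 35.7, 51.6 and 39.1 in endothelial cells, against 4.09 to 5.73 in T cells. P4ha1, a collagen prolyl hydroxylase subunit, was at 120, 115 and 125 CPM in fibroblasts and 23.4, 38.2 and 28.1 in T cells. Ero1l, an oxidase of the endoplasmic reticulum, was at 52.5, 51.8 and 71.8 CPM in T cells and 12.5, 14.8 and 12.6 in macrophages.

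For the comparisons a gene had to hold 20 UMIs over both libraries of a class, and was counted as higher or lower where the ratio of its CPM was at least 1.5 either way and its exact 95% interval left out 1. These intervals cover the counting of UMIs only and not the differences between animals, so a gene past the rule differs between 2 libraries, not between conditions. Over all kept cells none of the 30 genes passed in either comparison, where 2.49% and 3.22% of 16827 genes were higher and lower in HFpEF-scr than in Control, and 2.74% and 2.91% of 16957 in HFpEF-FoxO1-sh than in HFpEF-scr. The median log2 ratio of the 30 was -0.06 in the first comparison, against -0.02 over all genes, and 0.04 in the second, against 0.03.

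**Figure D2:**
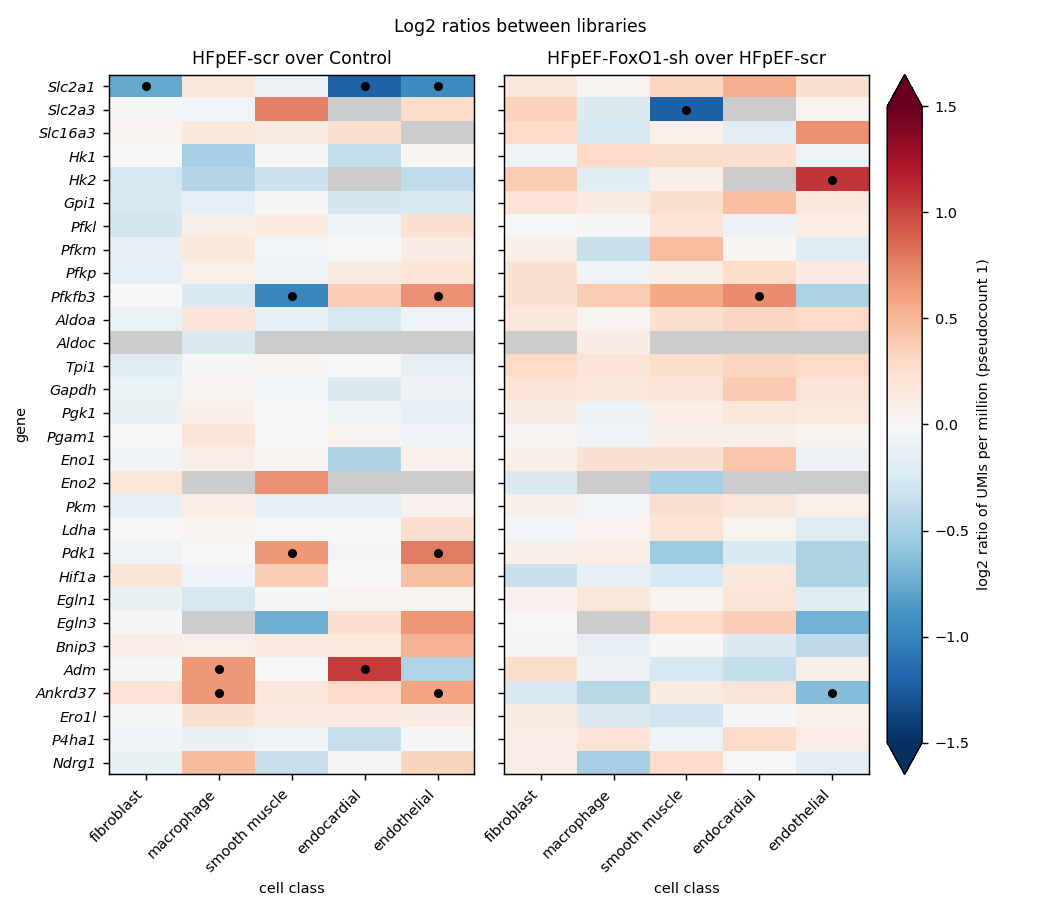
Log2 ratio of CPM (pseudocount 1) of each gene in 5 cell classes, HFpEF-scr over Control on the left and HFpEF-FoxO1-sh over HFpEF-scr on the right. Red is higher and blue lower in the first-named library, grey marks fewer than 20 UMIs, and black dots mark a ratio of at least 1.5 with an interval that leaves out 1. Slc2a1 is dotted blue on the left in 3 classes, and on the right most lower-glycolysis genes are pale red in fibroblasts, smooth muscle, endocardial and endothelial cells.

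Slc2a1 was the member that stood lower in HFpEF-scr than in Control in 3 classes. In fibroblasts it read 5.96, 3.09 and 3.59 CPM in the Control, the HFpEF-scr and the HFpEF-FoxO1-sh library, from 326, 178 and 258 UMIs. The ratio of HFpEF-scr to Control was 0.518 (0.429 to 0.624), and that of HFpEF-FoxO1-sh to HFpEF-scr was 1.16 (0.957 to 1.42). Control thus stood above both libraries of the High-Fat plus L-NAME diet, which lay within counting error of each other. In endocardial cells it read 14.2, 5.58 and 8.53 CPM, a first ratio of 0.393 (0.207 to 0.701), and in endothelial cells 6.91, 3.10 and 3.79 CPM, with 0.449 (0.224 to 0.875). Macrophages (3.99, 4.65 and 4.80) and smooth muscle cells (14.1, 13.3 and 16.9) did not share this, with first ratios of 1.17 (0.730 to 1.88) and 0.941 (0.621 to 1.42). The difference between classes was not tested. In endocardial cells thinned to 1000 UMIs the log2 ratio turned to 0.12, so the difference there was not kept at low depth.

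The fibroblast value did not come from a few cells. Slc2a1 had a UMI in 309 of 7743, 174 of 8583 and 250 of 10067 fibroblasts, or 3.99%, 2.03% and 2.48%. After each cell was thinned to 1000 UMIs the shares were 0.621%, 0.292% and 0.348%. Leaving out the cell of most UMIs in each library gave a first ratio of 0.517. Of the 7 fibroblast clusters, 6 had a first ratio between 0.459 and 0.572 with an interval below 1, and the seventh had 1.11 (0.611 to 2.04). By mitochondrial share of the cell, the first ratio was 0.561 (0.382 to 0.819) at 5 to 10%, 0.440 (0.336 to 0.572) at 10 to 15% and 0.717 (0.477 to 1.07) at 15 to 20%.

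**Figure D3:**
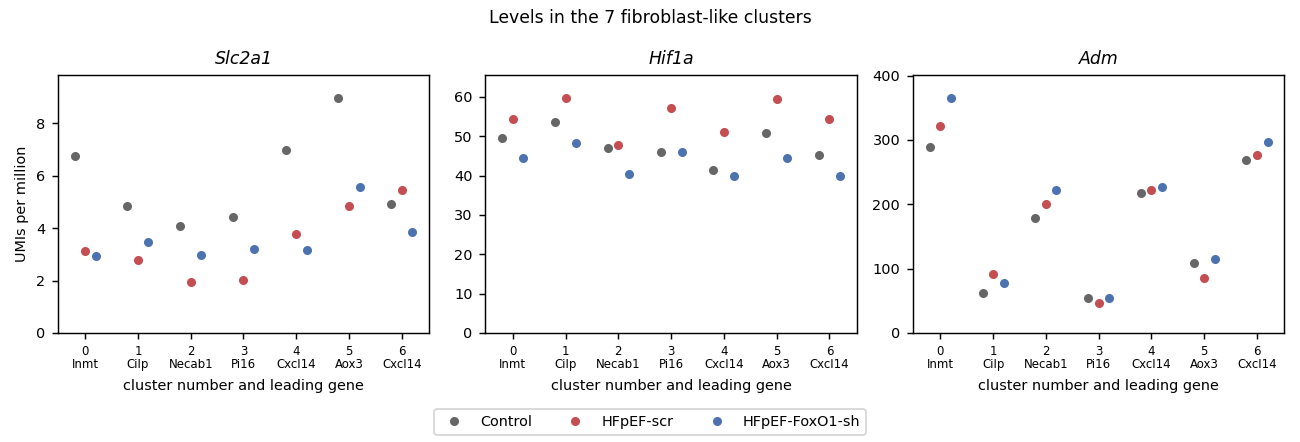
CPM of Slc2a1, Hif1a and Adm in each of the 7 fibroblast clusters, numbered and named by their leading gene, with 1 point per library. Slc2a1 is highest in Control in all clusters but the last, Hif1a is highest in HFpEF-scr in all 7, and Adm differs more between clusters than between libraries.

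Slc2a1 was the only member counted in fibroblasts: 0 of 29 measured genes were higher in HFpEF-scr, where 1.9% of 14509 genes were, and 1 was lower, where 2.22% were. Smaller differences pointed mostly downwards. The median log2 ratio was -0.06, against -0.01 over all genes, and 21 of 29 genes were below 0. Hif1a and Ankrd37 went the other way, with intervals above 1. Of the 7 entry enzymes 4 had an interval below 1 (Hk2, Gpi1, Pfkl and Pfkp), whereas Hk1 and Pfkfb3 both stood at 0.997 and Pfkm at 0.906 with intervals that held 1. Neither this count nor that of genes below 0 has a share over all genes beside it. Fibroblast sums are deep, with 6468 and 5757 UMIs of Gpi1 in Control and HFpEF-scr, so intervals leave out 1 at small differences. Gpi1 was measured with 118, 99.9 and 116 CPM and a first ratio of 0.845 (0.815 to 0.875), and Hk2 with 26.4, 22.1 and 28.9 CPM and 0.836 (0.775 to 0.902). Gapdh read 524, 489 and 565 CPM, with 0.932 (0.917 to 0.948). Tpi1 read 112, 98.2 and 121 CPM, with 0.880 (0.849 to 0.913).

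In the second comparison no fibroblast member was counted, against 1.9% higher and 2.05% lower among 14688 genes. The median log2 ratio was 0.11, against 0.04 over all genes. Hif1a, Eno2 and Ankrd37 had intervals below 1. Tpi1 had a ratio of 1.23 (1.19 to 1.27), Hk2 1.31 (1.22 to 1.41), Gapdh 1.16 (1.14 to 1.17) and Adm 1.20 (1.17 to 1.23). Fibroblasts of HFpEF-FoxO1-sh also held fewer mitochondrial UMIs, 8.69% against 12.0% in HFpEF-scr and 12.3% in Control, and more UMIs of 16 immediate early and heat shock genes, 11366 CPM against 8878 and 8899, 4 of which were counted higher. Within cells of like mitochondrial share part of the second difference was absent. Gapdh had ratios of 0.992 (0.969 to 1.02), 0.982 (0.955 to 1.01) and 1.04 (0.965 to 1.12) in the 3 bins from 5 to 20%, and Hk2 0.916, 0.902 and 0.503. Tpi1 kept 1.13 (1.07 to 1.19), 1.21 (1.15 to 1.29) and 1.18 (1.02 to 1.37). The medians of the 29 genes were -0.01, 0.08 and 0.06 there, against 0.01, 0.03 and 0.01 over all genes.

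In 3 of the 5 classes Hif1a stood above 1 in the first comparison and below 1 in the second, with both intervals leaving out 1. Ankrd37 had the same order in fibroblasts, macrophages and endothelial cells, and Gpi1 and Aldoa had the opposite order in 3 classes each. In fibroblasts Hif1a read 48.1, 55.2 and 43.6 CPM, a first ratio of 1.15 (1.09 to 1.21) and a second of 0.789 (0.751 to 0.829). Smooth muscle cells held 112, 145 and 122 CPM, with 1.29 (1.14 to 1.48) and 0.844 (0.738 to 0.963), and endothelial cells 73.5, 101 and 72.9, with 1.37 (1.18 to 1.60) and 0.722 (0.619 to 0.842). HFpEF-scr was thus the highest library in all 3, by less than 1.5 times, so Hif1a was not counted. After thinning to 1000 UMIs the second log2 ratio in smooth muscle cells turned to 0.25. Both ratios share the HFpEF-scr library, so one high value there gives both. Macrophages (52.5, 50.7 and 46.5 CPM) and endocardial cells (82.9, 83.3 and 94.2) had intervals that held 1 in both comparisons. All 7 fibroblast clusters had a first ratio of 1.01 to 1.24 and a second of 0.733 to 0.847. Unlike Gapdh, the second ratio stood below 1 in each bin of mitochondrial share, at 0.757 (0.701 to 0.818), 0.778 (0.712 to 0.851) and 0.646 (0.497 to 0.828). Hif1a overlaps the annotated gene Gm49321 on the same strand, so reads could be assigned to either.

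**Figure D4:**
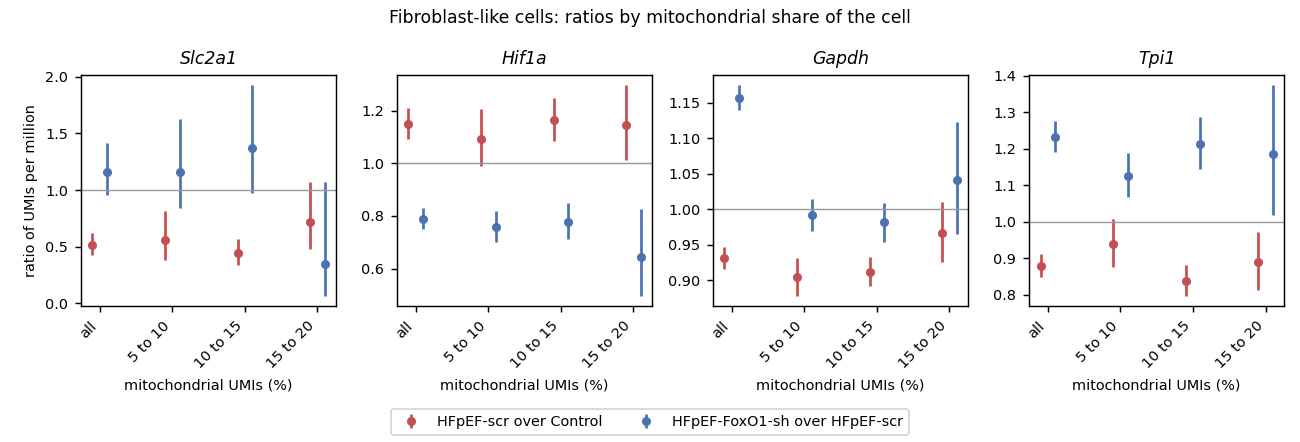
Ratio of CPM in fibroblasts for Slc2a1, Hif1a, Gapdh and Tpi1, over all cells and within 3 bins of the mitochondrial share of the cell; red is HFpEF-scr over Control, blue HFpEF-FoxO1-sh over HFpEF-scr, and bars are 95% counting intervals. The blue points of Hif1a stay below 1 in every bin and those of Tpi1 above 1, whereas those of Gapdh lie at 1 within bins.

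Endothelial cells held the most counted members of the 5 classes. As this class was added after the values were seen, its rank and shares are a description only. In HFpEF-scr 3 of 27 measured genes were higher than in Control and 1 lower, or 11.1% and 3.70%, where 2.04% and 4.44% of 11407 genes were. Ankrd37 read 29.9, 45.6 and 28.6 CPM, with a first ratio of 1.53 (1.21 to 1.94). Pfkfb3 read 9.40, 15.7 and 11.1 CPM, with 1.67 (1.11 to 2.58). Pdk1 read 8.29, 14.9 and 10.5 CPM, with 1.80 (1.17 to 2.85), but its log2 ratio turned to -1.30 at a 10% mitochondrial limit, where 27 and 52 cells remain. The other members named here lay above 1 without reaching 1.5. These were Bnip3, at 35.7, 51.6 and 39.1 CPM and 1.45 (1.17 to 1.80), Ndrg1, at 156, 197 and 177 and 1.26 (1.14 to 1.40), and Ldha, at 218, 260 and 228 and 1.19 (1.09 to 1.30). HFpEF-scr was the highest library for each of these 6 genes and for Hif1a. Adm went the other way, at 98.1, 71.8 and 77.0 CPM with 0.732 (0.631 to 0.849). The median over the 27 was 0.08, against -0.01 over all genes.

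In the second comparison 1 of 28 genes was lower in endothelial cells, Ankrd37, and 1 higher, Hk2, where 2.38% and 4.96% of 11356 genes were. Ankrd37 had a ratio of 0.627 (0.490 to 0.796), Bnip3 0.757 (0.610 to 0.935), Ldha 0.877 (0.802 to 0.959), Ndrg1 0.899 (0.811 to 0.995) and Egln1 0.881 (0.783 to 0.992). Some genes of lower glycolysis went the other way, with Aldoa at 1.23 (1.14 to 1.33), Tpi1 at 1.22 (1.05 to 1.42) and Gapdh at 1.14 (1.07 to 1.22). Pgk1 (1.12), Pkm (1.06), Pgam1 (1.03) and Eno1 (0.936) had intervals that held 1. In HFpEF-scr and HFpEF-FoxO1-sh, Tpi1 read 84.6 and 123 CPM in the endothelial cluster with fibroblast RNA. In the other endothelial cluster it read 71.9 and 78.2. The second log2 ratio of Ndrg1 turned to 0.18 at a 10% mitochondrial limit, 0.082 at 50% and 0.042 after thinning, and its first to -0.46 at 10%. Pdk1 (0.702, 0.459 to 1.06) and Pfkfb3 (0.705, 0.466 to 1.05) had intervals that held 1. HFpEF-FoxO1-sh thus lay near Control for Ankrd37, Bnip3 and Hif1a, again with HFpEF-scr in both ratios. Hk2 rested on 13, 13 and 22 UMIs, at 3.59, 2.52 and 6.41 CPM, and its direction turned with the mitochondrial limit: the second log2 ratio was 1.07 at the 20% limit and -0.14 at 50%. Of those UMIs 10, 12 and 20 lay in the endothelial cluster with fibroblast RNA described next, and 3, 1 and 2 in the other, and Hk2 read 22.1 to 28.9 CPM in fibroblasts, whose part in it was not tested.

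The endothelial class was made of 2 clusters, and 1 of them held fibroblast RNA. It had a median doublet score of 0.297 and 9854 to 10953 CPM of Dcn, against 0.0789 and 53.9 to 88.3 in the other, which held 236, 392 and 305 cells. In that cleaner cluster alone, the first ratio was 1.39 (1.17 to 1.65) for Hif1a, 1.47 (1.14 to 1.90) for Ankrd37, 1.38 (1.08 to 1.77) for Bnip3, 1.92 (1.19 to 3.23) for Pdk1 and 1.64 (1.04 to 2.66) for Pfkfb3, and Slc2a1 had 0.477 (0.213 to 1.04). The second was 0.754 (0.635 to 0.894) for Hif1a, 0.650 (0.498 to 0.841) for Ankrd37 and 0.838 (0.658 to 1.06) for Bnip3. Many endothelial cells lay over the 20% mitochondrial limit: at 50% the class held 1641, 1621 and 1025 cells. There the log2 ratios of the first comparison were 0.35 for Hif1a, 0.55 for Ankrd37 and 0.46 for Bnip3, and those of the second -0.25, -0.56 and -0.31. Among cells with a doublet score under 0.1 (141, 253 and 207 cells) Ankrd37 was nearer to 0, at 0.11 and -0.30, and not past the rule.

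**Figure D5:**
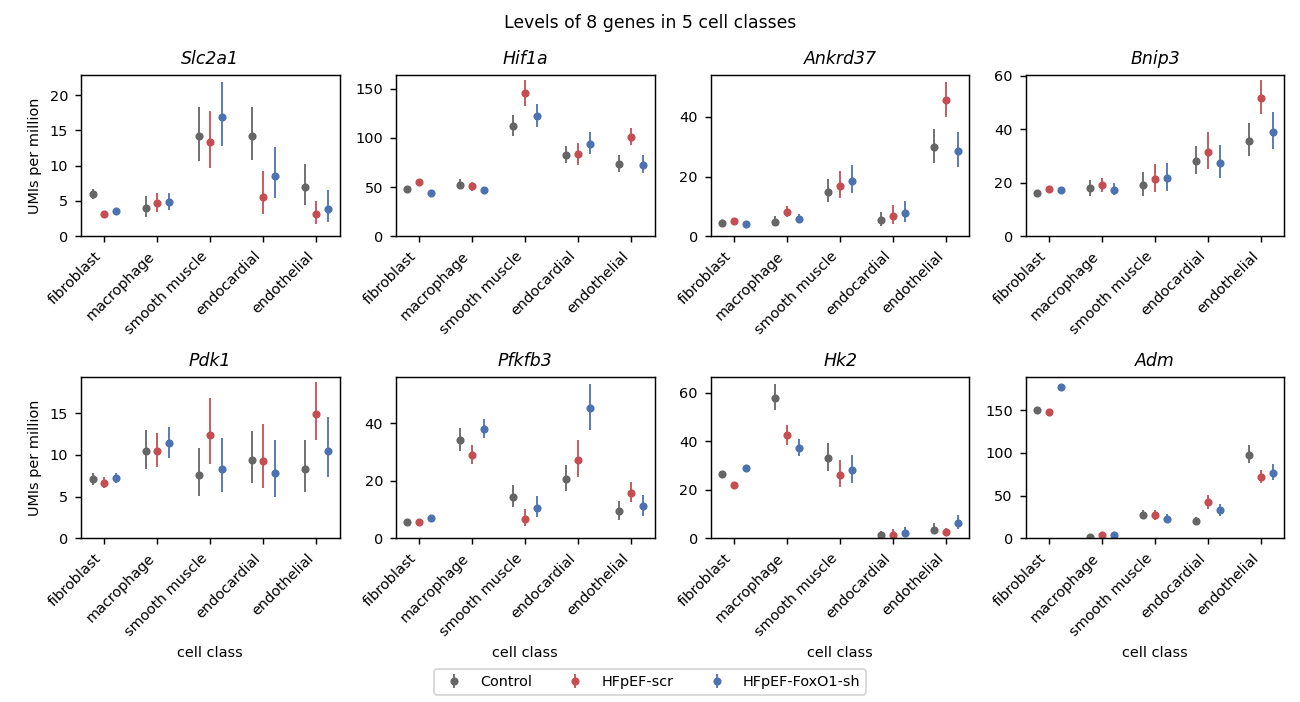
CPM of 8 genes in 5 cell classes in Control (grey), HFpEF-scr (red) and HFpEF-FoxO1-sh (blue), with 95% Poisson intervals that cover counting error only. In endothelial cells the red points of Hif1a, Ankrd37, Bnip3, Pdk1 and Pfkfb3 are the highest, and in fibroblasts, endocardial and endothelial cells the grey point of Slc2a1 is the highest.

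Macrophages had a lower level of both hexokinases in HFpEF-scr than in Control, below the fold used for counting. Hk2 read 57.9, 42.4 and 37.3 CPM, a first ratio of 0.732 (0.641 to 0.836), and stood at 0.675 and 0.794 in the 2 macrophage clusters, both intervals below 1. Hk1 read 21.8, 15.2 and 18.9 CPM, with 0.697 (0.559 to 0.870). Members counted higher were 2 of 28, against 2.08% of 11554 genes, and none was lower, where also 2.08% were. These were Ankrd37, at 4.86, 8.23 and 5.93 CPM with 1.69 (1.15 to 2.54), and Adm, at 2.12, 3.88 and 3.60 with 1.83 (1.01 to 3.44). Adm rested on 17 and 40 UMIs, 12 of the 40 in 1 cell, and without the highest cell of each library its ratio was 1.45 (0.749 to 2.92). Ankrd37 was not past the rule at a 50% mitochondrial limit, with a log2 ratio of 0.19. Neutrophil markers summed to 19.1, 171 and 18.1 CPM in macrophages, with HFpEF-scr the highest as for Ankrd37, and their part in it was not tested. In the second comparison none of 28 passed, against 1.89% higher and 2.21% lower of 11888 genes. Ndrg1 had 0.670 (0.472 to 0.949), Ankrd37 0.720 (0.523 to 0.990) and Pfkfb3 1.31 (1.14 to 1.52).

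Smooth muscle cells had 1 of 29 members higher and 1 lower in HFpEF-scr, where 2.91% and 2.14% of 11115 genes were. Pdk1 was higher, at 7.58, 12.4 and 8.30 CPM with 1.64 (1.00 to 2.71), its lower bound just above 1. Pfkfb3 was lower, at 14.4, 6.8 and 10.7 CPM with 0.472 (0.278 to 0.779), but its log2 ratio turned to 0.12 after thinning to 1000 UMIs. Over all UMIs Pfkfb3 thus differed in opposite directions in smooth muscle and endothelial cells, a contrast between classes that was not tested. In the second comparison 1 of 29 was lower, Slc2a3, where 4.11% of 10952 genes were, and none higher, where 1.83% were. Slc2a3 read 3.28, 6.21 and 2.08 CPM from 13, 21 and 7 UMIs, with 0.334 (0.12 to 0.816). Slc2a3 is the gene found at 265 to 603 CPM in neutrophils, and neutrophil markers summed to 2.02, 393 and 154 CPM in smooth muscle cells, highest in the same library, and their part in it was not tested. The median over members was 0.0037 in the first comparison and 0.14 in the second, against 0.02 and -0.03 over all genes. Gpi1, Aldoa, Tpi1, Gapdh and Pkm had second ratios of 1.14 to 1.21 with intervals above 1.

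Endocardial cells had 1 of 26 members higher and 1 lower in HFpEF-scr, against 2.91% and 2.6% of 10864 genes; the lower one was Slc2a1. Adm was the higher, at 19.7, 42.0 and 32.7 CPM with 2.13 (1.59 to 2.86), but 76 of its 113 UMIs in HFpEF-scr lay in 1 cell. Without the highest cell of each library the ratio was 0.910 (0.590 to 1.39), so the Adm difference rests on that cell. Adm is also a fibroblast gene, and Dcn read 2863, 3136 and 3699 CPM in endocardial cells, whose part in it was not tested. In the second comparison Pfkfb3 was higher, 1 of 26 where 3.21% of 10640 genes were, and none was lower, where 1.77% were. It read 20.7, 27.1 and 45.1 CPM, a second ratio of 1.66 (1.24 to 2.25), and had a UMI in 72 of 571, 60 of 420 and 84 of 351 cells. Within bins of mitochondrial share the second ratio was 1.47 (0.961 to 2.31) at 5 to 10% and 0.982 (0.512 to 1.82) at 10 to 15%, and endocardial cells held 12.2%, 12.0% and 8.31% mitochondrial UMIs. All 7 measured genes of lower glycolysis had second ratios above 1, Gapdh with 399, 342 and 450 CPM and 1.32 (1.21 to 1.43). None of the 7 passed the rule, and the intervals of Pgk1, Pgam1 and Eno1 held 1. This count has no share over all genes beside it, and the part of the mitochondrial share in it was not tested. The median over members was 0.0041 and then 0.19, against 0.01 and 0.04 over all genes.

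In dendritic cells all 8 measured genes of lower glycolysis stood above 1 in the first comparison, 5 with intervals above 1, and below 1 in the second, 5 with intervals below 1. Ldha, of pyruvate fate, read 212, 315 and 226 CPM, with 1.49 (1.32 to 1.68) and then 0.718 (0.635 to 0.811). Pgam1 read 149, 201 and 127 CPM, with 1.35 (1.16 to 1.57) and then 0.633 (0.539 to 0.742). Pgk1 (0.701, 0.578 to 0.848), Tpi1 (0.780, 0.656 to 0.925), Pkm (0.799, 0.704 to 0.906) and Gapdh (0.830, 0.773 to 0.891) were the other members of the group with second intervals below 1. HFpEF-scr was thus the highest library for these genes, again with HFpEF-scr in both ratios. It was the lowest for Gapdh in fibroblasts, smooth muscle, endocardial, endothelial and lymphatic endothelial cells, and the difference between classes was not tested. Neither the counts of directions nor those of intervals have a share over all genes beside them. By the counting rule only Pgam1 among the 8 genes passed, as lower in the second comparison. Flt3, a dendritic marker, was detected in 30.3%, 30.9% and 25.8% of these cells. Dcn, at 2922, 2511 and 3001 CPM there, was lowest in HFpEF-scr, and its part in these values was not tested.

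Other small classes are given by their counted members. Lymphatic endothelial cells, with 257 to 291 cells, had none of 26 members past the rule in either comparison, against 1.85% higher and 2.5% lower of 10118 genes and 2.87% and 1.68% of 10103. T cells had P4ha1 higher in HFpEF-scr, at 23.4, 38.2 and 28.1 CPM with 1.63 (1.02 to 2.65), 1 of 22 where 2.93% of genes were higher, none was lower, where 2.43% were, and none of 23 passed in the second comparison, where 2.41% and 2.62% did. Dendritic cells had Hk1 (1.54, 1.02 to 2.35) and Pdk1 (2.01, 1.02 to 4.20) higher in HFpEF-scr, 2 of 27 where 2.7% of genes were, and none lower, where 3.79% were. Pgam1 was the member counted lower in their second comparison, 1 of 27 where 3.85% of genes were lower. Slc2a3 (2.33, 1.30 to 4.30) and Adm (1.65, 1.08 to 2.54) were higher there, 2 of 27 where 4.47% were. Dcn read 2922, 2511 and 3001 CPM in dendritic cells, also higher in the second comparison, and its part in the Adm value was not tested. Monocytes had Pfkp lower in HFpEF-scr, from 73.9 to 43.4 CPM with 0.587 (0.408 to 0.852), 1 of 24 where 2.44% of genes were, and none higher, where 3.97% were. In HFpEF-FoxO1-sh 2 of 24 were lower, where 5.17% were: Ldha, from 243 to 161 CPM with 0.660 (0.514 to 0.839), and Ndrg1, with 0.461 (0.238 to 0.823). Pdk1 was higher there with 2.31 (1.1 to 4.69), 1 of 24 where 2.41% were. The smallest library of each of these 3 classes held 239, 186 and 83 cells. In Schwann cells, with 66 cells in Control, Ldha was lower in HFpEF-scr, 1 of 16 where 2.12% of genes were, with none higher where 3.07% were, and Bnip3 and Adm were higher in HFpEF-FoxO1-sh, 2 of 18 where 3.49% were, with none lower where 5.22% were. Dcn read 3521, 3745 and 1189 CPM in Schwann cells, so fibroblast RNA differed between the libraries compared, and its part in these counts was not tested.

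The 3 classes with much fibroblast RNA are given as counts only. Of erythroid-like cells none of 25 members passed in the first comparison, where 2.24% and 2.48% of genes were higher and lower, and 2 were higher and none lower in the second, where 2.47% and 2.32% were. B cells had 0 higher and 1 lower of 23 (2.84% and 2.54% of genes), and then 3 higher and 5 lower of 25 (5.52% and 26.7%), beside the drop of Dcn given above. Cardiomyocyte-like cells had 3 higher and 4 lower of 21 (7.99% and 6.01%), and then 2 and 2 of 21 (4.18% and 8.28%).

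The other genes of both pathways, 28 of glycolysis and pyruvate handling and 35 of the hypoxia response, were counted by the same rule, to be read against the shares of all genes already given for each class. In fibroblasts 0 of 23 measured glycolysis genes passed in either comparison. Of 33 hypoxia genes there Ak4, a mitochondrial adenylate kinase, was higher in HFpEF-scr, at 3.22, 5.10 and 2.80 CPM with a first ratio of 1.59 (1.31 to 1.92) and a second of 0.549 (0.456 to 0.659). Stc1, which encodes the hormone stanniocalcin, was lower in fibroblasts of HFpEF-FoxO1-sh, at 0.451 and 0.209 CPM. Among 31 hypoxia genes in endothelial cells 5 were higher and 1 lower in HFpEF-scr than in Control, or 16.1% and 3.23%, where 2.04% and 4.44% of all genes were, and of 19 glycolysis genes 0 were higher and 1 lower. Stc1 read 11.3, 31.8 and 16.0 CPM there, with 2.81 (1.98 to 4.06) and then 0.504 (0.364 to 0.688). Stc2, the paralogue of Stc1, was at 9.12 and 3.30 CPM with 0.362 (0.189 to 0.668). Ddit4, an inhibitor of mTOR signalling, was at 22.9 and 51.6 CPM with 2.25 (1.75 to 2.91). Lox, a collagen cross-linking oxidase, and Edn1, the vasoconstrictor endothelin, had second ratios of 2.15 (1.48 to 3.14) and 1.83 (1.60 to 2.09). Lox is also a fibroblast gene, at 37.2 and 42.7 CPM there, and Dcn over both endothelial clusters read 2127 and 3149 CPM in the libraries compared, whose part in the Lox value was not tested.

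In endocardial cells 4 of 33 hypoxia genes were higher and 1 lower in HFpEF-scr, or 12.1% and 3.03%, where 2.91% and 2.6% of all genes were, and of 16 glycolysis genes 2 were higher and 0 lower. Stc1 again was higher, at 25, 53.5 and 25.2 CPM, with 2.14 (1.65 to 2.78) and then 0.471 (0.349 to 0.630). Edn1 had a second ratio of 2.39 (2.02 to 2.84). HFpEF-scr was thus the highest library for Stc1 in both endothelial and endocardial cells. Macrophages had 3 of 26 hypoxia genes higher and 1 lower in HFpEF-scr, or 11.5% and 3.85%, where 2.08% of all genes were higher and 2.08% lower, and of 20 glycolysis genes 1 was higher and 0 lower. Bhlhe40, a transcriptional repressor, at 7.60, 17.1 and 6.91 CPM with 2.26 (1.68 to 3.07) and then 0.403 (0.310 to 0.521), was among the 3 hypoxia genes. Neutrophil markers in macrophages followed the same order of libraries, at 19.1, 171 and 18.1 CPM, and their part in it was not tested. In smooth muscle cells the chemokine receptor gene Cxcr4 read 3.28, 11.8 and 2.08 CPM, with 3.60 (1.89 to 7.34) and 0.175 (0.0663 to 0.396). Neutrophil markers were highest in the same library of smooth muscle cells, and their part in the Cxcr4 values was not tested. Of the glycolysis list, Pdk4, the fasting-induced pyruvate dehydrogenase kinase, was higher in macrophages of HFpEF-scr, from 2 to 36 UMIs, and Pfkfb2 in endocardial cells, at 1.93 and 6.69 CPM with 3.47 (1.44 to 9.23).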

How the data were processed

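Left ventricle of 3 groups of mice was profiled by 10x 3' single-cell RNA sequencing, 1 library of 4 pooled samples per group. The authors deposited UMI counts per gene and barcode, not normalized, made with Cell Ranger 6.1.2 on mm10 per the submitters' processing notes. The annotation release is not given in the sources used here. Kept barcodes had 500 UMIs or more, 300 genes or more and no more than 20% of UMIs from mitochondrial genes, and Scrublet doublets (182, 342 and 600) were removed. Clustering used scanpy 1.11.5 (2000 variable genes without the listed genes, 30 components, 15 neighbours, Leiden resolution 1), and a cluster was named from at least 3 markers among its top 100 genes by fold. UMIs were summed per library and class. Level intervals are Poisson and ratio intervals exact conditional binomial, both at 95%, and cover counting error only. With 1 library per group no test between groups was run. Shares of cells were also taken after thinning to 1000 UMIs. The counting rule and its intervals were tested on Poisson counts simulated from the fibroblast sums, and the summing was not tested that way. Members, lists and classes were chosen with earlier results of these data known. Any member may be named, and of the other lists up to 3 genes per class and comparison, those past the rule with the largest ratios. One gene that this rule would name is not reported here. Alternatives are given in the closing section.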

Additional observations from a re-analysis of the deposited data

How the results depend on the processing

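No paired analysis was possible because each group is 1 library and the labels carry no replicate numbers. Over 48 ratios of single members, 650 alternative values gave 587 within the interval of the reported one, 48 outside it and 15 with the other sign. The median of fibroblast members in the second comparison moved from 0.11 to 0.0093 (log2) at a 10% mitochondrial limit. On the log2 scale, signs turned as follows. At 10%, which leaves 27, 52 and 55 endothelial cells, macrophage Adm read -1.29 in the first comparison and Gapdh -0.17 in the second, and endothelial Ndrg1 -0.46 and Pdk1 -1.30 in the first and Hk2 -1.51 and Ndrg1 0.18 in the second. At 50%, endothelial Hk2 and Ndrg1 read -0.14 and 0.082 in the second. After thinning, smooth muscle Pfkfb3 (0.12) and endocardial Slc2a1 (0.12) turned in the first comparison, and smooth muscle Hif1a (0.25) and endothelial Ndrg1 (0.042) in the second. Macrophage Adm read -0.11 at Leiden resolution 2. Endocardial Adm read -0.22 at a doublet score under 0.1 and -0.13 without the highest cell. The cause was not tested, apart from the last, where the highest cell of each library was removed. With a ratio of at least 2 in place of 1.5, the first comparison counted 0 lower in fibroblasts (1 before), 0 higher in macrophages (2), 0 higher in smooth muscle cells (1) and 0 higher in endothelial cells (3), and with a lower ratio it counted up to 6 higher and 2 lower in endothelial cells. The endothelial class, equal weighting of clusters, the endothelial cluster of lower doublet score and the removal of the highest cell were chosen after seeing the data. Rare genes are limited by depth: a member under 20 UMIs was not compared.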
